A study of Danio rerio with 21 samples.

Results

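The genes jun, fosl1a and zfp36l1a are immediate early genes, and their transcripts were followed across cells sorted from zebrafish embryos. They were picked by symbol and make up 3 of the 3064 distinct genes listed in the 3 comparison tables. All 3 genes had values in the table that sets haemogenic endothelium (HE) against aortic roof endothelium (ARE). In the morphant against non-injected table of the HE gate 2 of them had values, jun and fosl1a. In the same table of the non-endothelial gate only 1 had values, fosl1a. The tables list only genes that had already passed the authors' own test, so a gene without a value here is not analysed further, and it cannot be read as unchanged.

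Immediate early genes are transcribed within minutes of a growth factor, cytokine or stress signal, without a need for new protein synthesis. Jun is a bZIP protein that pairs with Fos family proteins to form AP-1, a dimer that binds DNA and lies downstream of MAP kinase signalling. Fosl1a is the zebrafish counterpart of mammalian Fra-1, a Fos family partner of Jun. Zfp36l1a belongs to a family of CCCH zinc finger proteins. In mammals these bind AU-rich stretches of messenger RNAs, many of them immediate early or cytokine messages, and recruit the enzymes that shorten the poly(A) tail. In the embryonic aorta, HE cells of the floor give rise to blood stem cells, whereas the roof remains endothelial.

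Embryos of the line TgBAC(runx1P2:Citrine);Tg(kdrl:mCherry) were staged to 28-30 hpf, dissociated and sorted on mCherry, which reports the endothelial gene kdrl, and on Citrine, which reports runx1. The 21 libraries form 7 groups of 3, and 15 libraries in 5 groups had values. MO-DP-R1hi held cells with mCherry and high Citrine from embryos injected with a runx1 morpholino (MO), and Wt-DP-R1hi (HE) held the same gate from non-injected embryos. Wt-DP-R1lo (ARE) held cells with mCherry and low Citrine from non-injected embryos. MO-DN and Wt-DN held cells with neither reporter, labelled as non-endothelial tissue, from injected and non-injected embryos. All 5 groups carried both transgenes and had the same age. The low Citrine of the roof gate is residual protein and that gate takes in sprouting intersomitic vessels. At least 3000 cells were sorted for each library. By the study's methods each library of a group is a separate experiment, and an experiment mixed embryos of more than 1 clutch.

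Effective library sizes, recovered from the step that a single read makes in the CPM values (reads of a gene for every 1e+06 reads, or 1 Mread, of the library), ran from 13.8 to 19.3 Mreads in the HE and ARE libraries. They ran from 9.72 to 17.6 Mreads in the DP-R1hi morphant comparison and from 12.7 to 22.6 Mreads in the DN comparison. The 3 genes had between 141 and 12279 reads in every library that listed them, which puts their counting error at 8.42% or less. Marker transcripts named after their values were seen describe the gates. They cannot test the gate labels, since the study chose its high gate for haemogenic marker expression and only genes called as changed are listed. The HE libraries had 205, 136 and 242 CPM of gfi1aa, a transcriptional repressor known from HE, against 4.22, 2.83 and 8.51 CPM in ARE. The blood stem cell factor myb averaged 806 ± 69.9 CPM in HE and 158 ± 15.5 CPM in ARE (SD, n = 3 each). The VEGF receptor gene kdrl averaged 15 ± 9.77 CPM in HE and 125 ± 61.1 CPM in ARE (SD, n = 3 each). Both gates held kdrl transcript, with fewer reads in the gate that was sorted on high Citrine. None of the 21 endothelial markers is listed in the DN table, so the DN gate could not be described in the same way.

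The first comparison asked how the 3 genes differ between the haemogenic and roof gates sorted from pools of non-injected embryos. The levels are those of dissociated and sorted cells, and any effect of dissociation on them was not tested. All of them were lower in HE. The transcript of the mRNA decay factor zfp36l1a was 6.67-fold higher in ARE by the means, jun was 3.84-fold higher there and fosl1a 2.05-fold higher. For all 3 genes every HE library lay below every ARE library.

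jun had 128, 110 and 137 CPM in the 3 HE libraries, against 256, 455 and 727 CPM in the 3 ARE libraries. The HE libraries lay close together and the ARE libraries were spread out, with the lowest of them still above the highest HE library. The means were 125 ± 13.6 CPM in HE and 479 ± 236 CPM in ARE (SD, n = 3 each). The fitted difference, HE minus ARE on the log2(CPM + 1) scale, was -1.81 (SE 0.29, 95% interval -2.47 to -1.16, limma adjusted p = 0.000968).

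fosl1a had 27.2, 28.2 and 41.5 CPM in HE, against 61.1, 69.6 and 67.9 CPM in ARE. Here the ARE libraries were the tight ones, and HE library 3 stood above the other HE libraries without reaching the ARE range. The means were 32.3 ± 8.01 CPM in HE and 66.2 ± 4.46 CPM in ARE (SD, n = 3 each). The difference was -1.04 (SE 0.20, 95% interval -1.47 to -0.60, limma adjusted p = 0.00248).

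zfp36l1a had 81, 76.2 and 105 CPM in HE, against 559, 453 and 736 CPM in ARE. The lowest ARE library was several times above the highest HE library, the widest gap among the 3 genes. The means were 87.3 ± 15.3 CPM in HE and 583 ± 143 CPM in ARE (SD, n = 3 each). The difference was -2.71 (SE 0.19, 95% interval -3.12 to -2.30, limma adjusted p = 5.52e-06).

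**Figure D1:**
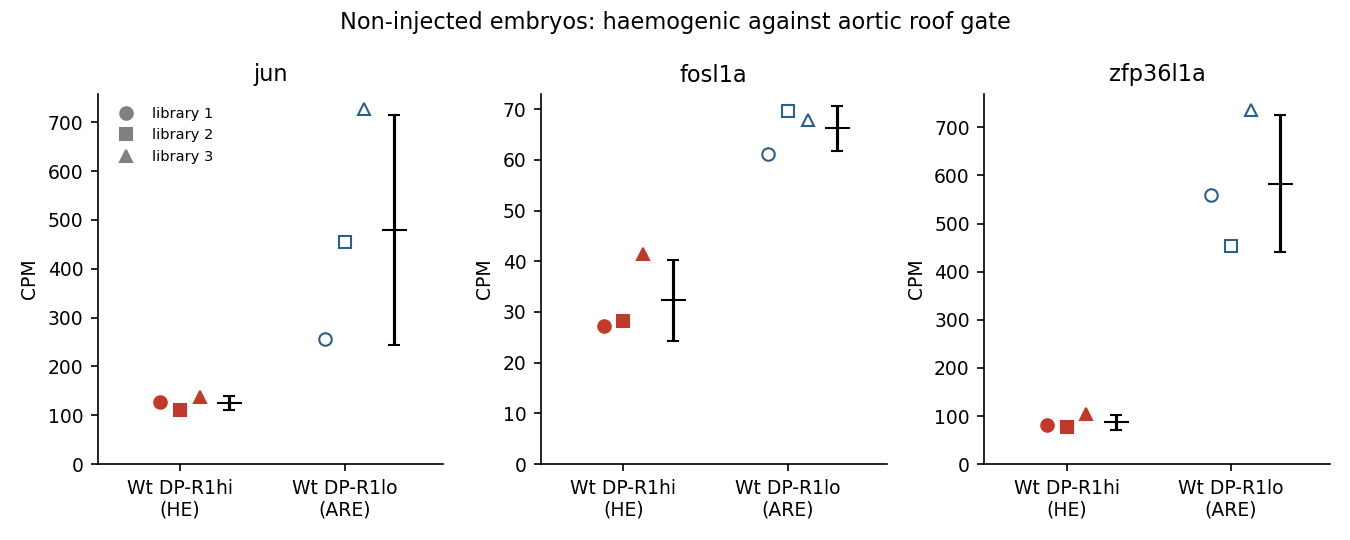
CPM (vertical axis) of jun, fosl1a and zfp36l1a in the 3 HE libraries (filled red) and the 3 ARE libraries (open blue) of non-injected embryos. Marker shape gives the library number, the horizontal dash the mean and the bar 1 SD; in each panel the HE libraries all sit below the ARE libraries, and jun spreads from 256 to 727 CPM in ARE.

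These calls stand on a table in which most genes moved. Of the 2732 genes listed, 94.5% passed the same limma test, 56.5% as lower and 38% as higher in HE. Counted over the 10916 genes that the authors tested, 23.6% passed and 14.1% passed as lower. The groups did not overlap for 98.1% of listed genes, so the lack of overlap of the 3 members is no more than the listing brings. An exact two-sided permutation test of 3 against 3 libraries cannot go below 0.10, and all 3 genes gave that value. The limma fit and this test treat the libraries as unpaired, though the study sorted its gates from shared pools of embryos. With the replicate number as a block the SE was 0.21 for jun, 0.17 for fosl1a and 0.10 for zfp36l1a, and all 3 passed. Among the 1633 listed genes with a lower level in HE, whose median difference was -1.702, zfp36l1a ranked 355 by size, jun 744 and fosl1a 1341.

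The size of the differences depends on how the libraries are scaled. Scaling by median ratios over the listed genes moves the differences up by about 0.86 on the log2 scale, since the listed genes were chosen as changed. The split of passing genes was 1037 higher and 1544 lower in HE with the deposited CPM, and 1099 higher and 819 lower after the rescaling. Relative to the shift zfp36l1a stood at -1.86 (limma adjusted p = 1.62e-06) and jun at -0.96 (limma adjusted p = 0.00964). fosl1a stood at -0.20 and no longer passed (limma adjusted p = 1).

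Markers of other cell types moved with the gates. Summed over the 13 listed epidermis and periderm markers of 29, the HE libraries had 136 to 271 CPM and the ARE libraries 1591 to 3922 CPM. The 6 listed markers of 28 for muscle, sclerotome and neural crest summed to 7.56 to 21.6 CPM in HE and 767 to 986 CPM in ARE. The 13 listed nervous system markers of 20 summed to 111 to 163 CPM in HE and 400 to 587 CPM in ARE. For each of these lists every ARE library was above every HE library. Taken singly, 98.1% of all listed genes had groups that did not overlap. The 8 listed macrophage and neutrophil markers of 19 gave 530 to 646 CPM in HE and 1600 to 2213 CPM in ARE, and the 13 listed endothelial markers of 21 gave 887 to 1190 CPM in HE and 1921 to 3604 CPM in ARE. The sums of the 5 listed erythrocyte markers of 20 overlapped between the gates, with 2636 to 3206 CPM in HE and 2887 to 3628 CPM in ARE. Taken singly all 5 passed, 4 higher and 1 lower in HE (median 0.80), beside 94.5% of all listed genes passing, 38% as higher. No listed marker was at 0 in any library. Sums of this kind cover only the markers listed in a comparison, so they do not give the cell content of a gate. In the morphant comparison the same Wt-DP-R1hi libraries summed to 8842 to 11081 CPM over 9 listed macrophage and neutrophil markers. Over 9 listed erythrocyte markers they summed to 36671 to 48065 CPM there. The part of these cells in the levels of jun, fosl1a and zfp36l1a was not tested, and in sorted pools fewer cells of a type and less RNA per cell cannot be told apart.

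The genes around AP-1 were read from a list of 32 subunits and partners, of which 10 were listed. All 10 had lower values in HE, with the deposited CPM and after the rescaling. Of these, 8 passed the test, beside 56.5% of all listed genes passing as lower. Their median difference was -1.25, beside -1.003 over all listed genes. The large Maf factors mafbb and mafba, bZIP regulators best known from macrophages, were far apart, at 8.29 ± 4.81 CPM in HE and 494 ± 149 CPM in ARE for mafbb (SD, n = 3 each). The differences were -5.87 for mafbb (SE 0.41, limma adjusted p = 6.44e-06) and -4.50 for mafba (SE 0.25, limma adjusted p = 1.59e-06). atf3, a stress-induced bZIP factor, averaged 158 ± 5.29 CPM in HE and 397 ± 49.5 CPM in ARE, a difference of -1.32. The small Maf genes mafk and maff, which lack an activation domain, fell by 1.27 and 1.23. fosl2, the gene of the second Fra-type Fos protein, fell by 0.96, at 116 ± 12.6 CPM in HE and 231 ± 55.9 CPM in ARE. Neither fosb, a further Fos partner of Jun, at -0.95 (limma adjusted p = 0.0601), nor batf3, a bZIP gene of the immune system, at -0.89 (limma adjusted p = 0.0895), passed. After the rescaling fosl2, batf3, fosb and fosl1a lay between -0.20 and -0.11, while atf3 and mafk stood at -0.47.

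The ZFP36 family and the mRNA decay machinery were read from a list of 38 genes, of which 7 were listed. All 7 passed, 5 lower and 2 higher in HE, beside 94.5% of all listed genes passing and 56.5% passing as lower. Their median was -1.29, beside -1.003 over all listed genes. The closest relatives of zfp36l1a were lower in HE as well. Its duplicate zfp36l1b averaged 48.7 ± 14.9 CPM in HE and 307 ± 106 CPM in ARE, a difference of -2.62 (SE 0.26, limma adjusted p = 3.57e-05). zfp36l2, a further member that binds AU-rich messages, averaged 50.3 ± 6.25 CPM in HE and 213 ± 47.2 CPM in ARE, a difference of -2.05 (SE 0.18, limma adjusted p = 1.94e-05). After the rescaling these stood at -1.77 for zfp36l1b and -1.20 for zfp36l2. btg2 and tob1b, whose mammalian counterparts tie the CCR4-NOT deadenylase to its targets, fell by 1.29 and 0.94. The 2 higher genes were pan3, a subunit of the PAN2-PAN3 deadenylase, at 0.90 (limma adjusted p = 0.0011) and the decapping enzyme gene dcp2 at 0.68 (limma adjusted p = 0.0176). Of all listed genes 38% passed as higher in HE. Decay factors that are not listed have no value here. How reads shared by duplicates such as zfp36l1a and zfp36l1b were assigned, and whether strand was used, is not given in the sources used here, so their separate values are uncertain to that degree.

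Other immediate early genes were read from a list of 78, of which 23 were listed. All 23 passed, 17 lower and 6 higher in HE, beside 94.5% of all listed genes passing and 56.5% passing as lower. After the rescaling 16 had lower and 7 higher values. Their median difference was -1.56, beside -1.003 over all listed genes. The matricellular growth-response genes ctgfa and cyr61 differed by -4.94 (SE 0.50, limma adjusted p = 4.36e-05) and -3.89 (SE 0.36, limma adjusted p = 2.49e-05). In HE cyr61 had very few reads, at 0.311 to 1.79 CPM. The bZIP gene cebpd, induced by cytokines, differed by -3.31 (SE 0.41, limma adjusted p = 0.00016).

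The HE and ARE lists that follow stand beside 94.5% of all listed genes passing, 56.5% as lower, and a median of -1.003. Upstream of AP-1, 10 of 62 genes of the MAP kinase cascade were listed and passed, 8 lower and 2 higher in HE, with a median of -1.37. The 3 largest differences belonged to feedback inhibitors of Ras and ERK signalling, with spry4 at -2.69 (18.1 ± 6.43 CPM in HE and 120 ± 34.6 CPM in ARE), spred1 at -2.18 and spry1 at -1.72. Levels in HE were very low for spred1, at 0.291 to 1.11 CPM, and for spry1, at 1.35 to 2.47 CPM. Downstream, 17 of 39 genes known in mammals as AP-1 targets were listed and passed, 15 lower and 2 higher in HE, or 14 lower and 3 higher in value after the rescaling, with a median of -2.79. The largest differences were those of col1a2, a fibrillar collagen gene that also stands in the sclerotome marker list, at -6.03, the keratin gene krt18 at -3.64 and the matrix protease gene mmp14b at -3.42. Whether genes of this list respond to AP-1 in these cells was not tested. Nor was the part of other cell types in their values. A list of 37 heat shock and protein folding genes was read as well, of which 11 were listed and 10 passed, 5 lower and 5 higher in HE (median -1.07), with hmox1a (haem oxygenase) at -4.93 and the collagen chaperone genes serpinh1b and serpinh1a at -4.68 and -3.35.

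The next comparison asked what the runx1 morpholino changed within the HE gate. Both listed members had more transcript in the morphant libraries, jun by 5.33-fold and fosl1a by 2.36-fold of the means. Only fosl1a passed the test without pairing of libraries. zfp36l1a has no value in this table and none of the 38 genes of the ZFP36 and decay list is in it.

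jun had 195, 822 and 1150 CPM in the 3 morphant libraries, against 138, 118 and 150 CPM in the 3 non-injected ones. Morphant library 1 lay just above the non-injected range and the other 2 morphant libraries far above it, so the groups did not overlap but the size of the difference varied from library to library. The means were 722 ± 486 CPM in morphants and 135 ± 15.9 CPM in non-injected embryos (SD, n = 3 each). The difference, MO minus Wt, was 2.07 (SE 0.52, 95% interval 0.91 to 3.23), and it did not pass (limma adjusted p = 0.0799, unadjusted p = 0.00254). With the replicate number as a block jun did pass (2.07, limma adjusted p = 0.0043). Deviations of libraries with the same number were only weakly correlated (0.128, 0.313 and 0.118), so pairing by number is possible but not shown. Without morphant library 1, the morphant library nearest to the non-injected ones, the difference was 2.84 and passed (limma adjusted p = 0.000136). With any other library left out it did not pass (limma adjusted p from 0.138 to 0.335).

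fosl1a had 105, 70.8 and 72.9 CPM in the morphant libraries, against 29.3, 30.4 and 45.6 CPM in the non-injected ones. Here morphant library 1, the lowest for jun, was the highest, and no morphant library came near the non-injected range. The means were 82.8 ± 19 CPM in morphants and 35.1 ± 9.09 CPM in non-injected embryos (SD, n = 3 each). The difference was 1.22 (SE 0.25, 95% interval 0.66 to 1.78, limma adjusted p = 0.0357). The call was narrow, and it was lost without morphant library 1 (limma adjusted p = 0.109), 2 (0.0600) or 3 (0.0586). It was also lost without non-injected library 1 (limma adjusted p = 0.189) or 2 (0.177), and kept without non-injected library 3 (0.0339).

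Of the 676 genes listed here, 41.4% passed the test and 26.3% passed as higher in morphants. Over the 11479 genes that the authors tested these shares were 2.44% and 1.55%. The groups did not overlap for 93.2% of the listed genes. The exact two-sided permutation test gave 0.10 for both genes, the smallest value that 3 against 3 libraries allow. Among the 421 genes with more transcript in morphants, whose median was 1.295, jun ranked 68 and fosl1a 245 by size. Median-ratio scaling moves these differences down by about 0.80. Relative to that shift jun stood at 1.27 and fosl1a at 0.44, and neither passed (limma adjusted p = 1 each). The passing genes numbered 178 higher and 102 lower with the deposited CPM, and 56 higher and 237 lower after the rescaling.

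Cell type markers moved with the injection too. The 9 listed erythrocyte markers of 20 summed to 105042 to 167087 CPM in morphants and 36671 to 48065 CPM in non-injected embryos. The 9 listed macrophage and neutrophil markers of 19 went both ways. Of these 8 passed, 6 higher and 2 lower in morphants (median 2.50), beside 41.4% of all listed genes passing, 26.3% as higher. Those higher included mfap4 at 3.38 and mpeg1.1 at 2.58. Those lower were cpa5 at -2.72, mpx at -1.42 and coro1a, which did not pass, at -0.84. The sum over all 9, at 4035 to 5794 CPM in morphants and 8842 to 11081 CPM in non-injected embryos, hides these opposite changes. The 8 listed epidermis and periderm markers of 29 summed to 3460, 1318 and 419 CPM in the morphant libraries and 134 to 278 CPM in the non-injected ones, and none of the 8 passed. In morphant library 1, where this sum was highest, jun was lowest and fosl1a highest. An order of 3 libraries is a description only. The 3 listed muscle, sclerotome and neural crest markers of 28 summed to 35.6 to 59.5 CPM in morphants and 6.25 to 20.1 CPM in non-injected embryos. The sums of the 4 listed endothelial markers of 21 overlapped, at 850 to 1168 CPM in morphants and 870 to 922 CPM in non-injected embryos. Taken singly 3 were higher and 1 lower in morphants, and 2 passed, 1 in each direction, beside 41.4% of all listed genes passing. The part of these cells in the values of jun and fosl1a was not tested.

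Of the 32 AP-1 genes 4 were listed in the morphant comparison of the HE gate, all with higher values in morphants, also after the rescaling. Their median was 2.77, beside 1.019 over all listed genes, of which 41.4% passed, 26.3% as higher. The large Maf genes mafbb and mafba lay above that median, and jun at 2.07 and fosl1a at 1.22 lay below it. The 9 listed macrophage and neutrophil markers had a median of 2.50. Their part in the Maf values was not tested. Besides fosl1a, mafba passed at 3.46 (34.1 ± 18.5 CPM in morphants and 1.96 ± 0.514 CPM in non-injected embryos, SD, n = 3 each, limma adjusted p = 0.00165). mafbb, at 3.77 with 14.7 CPM in its lowest and 367 CPM in its highest morphant library, did not pass (limma adjusted p = 0.108). Of the 78 other immediate early genes 7 were listed (median 1.36). Of these 6 passed, all higher, beside 26.3% of all listed genes passing as higher. Among them was nfkbiaa, which encodes an inhibitor of NF-kB, at 1.61 (limma adjusted p = 0.0465). The Kruppel-like factor gene klf17 was another, at 1.38 (limma adjusted p = 0.00973). The 9 listed erythrocyte markers, all higher, had a median of 1.48. Whether klf17 responds as an immediate early gene in these cells was not tested. ctgfa stood at 1.48 and did not pass (limma adjusted p = 0.772). Of the MAP kinase list 2 of 62 were listed, spry4 at 1.14 and map2k6, an activator of p38, at -0.82, and neither passed.

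The next lists stand beside 41.4% of all listed genes passing, 26.3% as higher, and a median of 1.019. Of the 39 mammalian AP-1 targets 7 were listed (median 1.56) and 2 passed, both higher. col1a2 was among them at 1.98 (limma adjusted p = 0.0141), while il6, a cytokine gene, at 2.16 and ptgs2a, a cyclooxygenase gene, at 2.03 did not pass. Of the 37 heat shock and folding genes 8 were listed (median 1.28) and 1 passed, hmox1a at 2.96 (233 ± 19.1 CPM in morphants and 32 ± 16.8 CPM in non-injected embryos, SD, n = 3 each, limma adjusted p = 0.0015). The next largest, serpinh1b at 1.42 and hspb8, a small heat shock protein gene, at 1.39, did not pass.

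**Figure D2:**
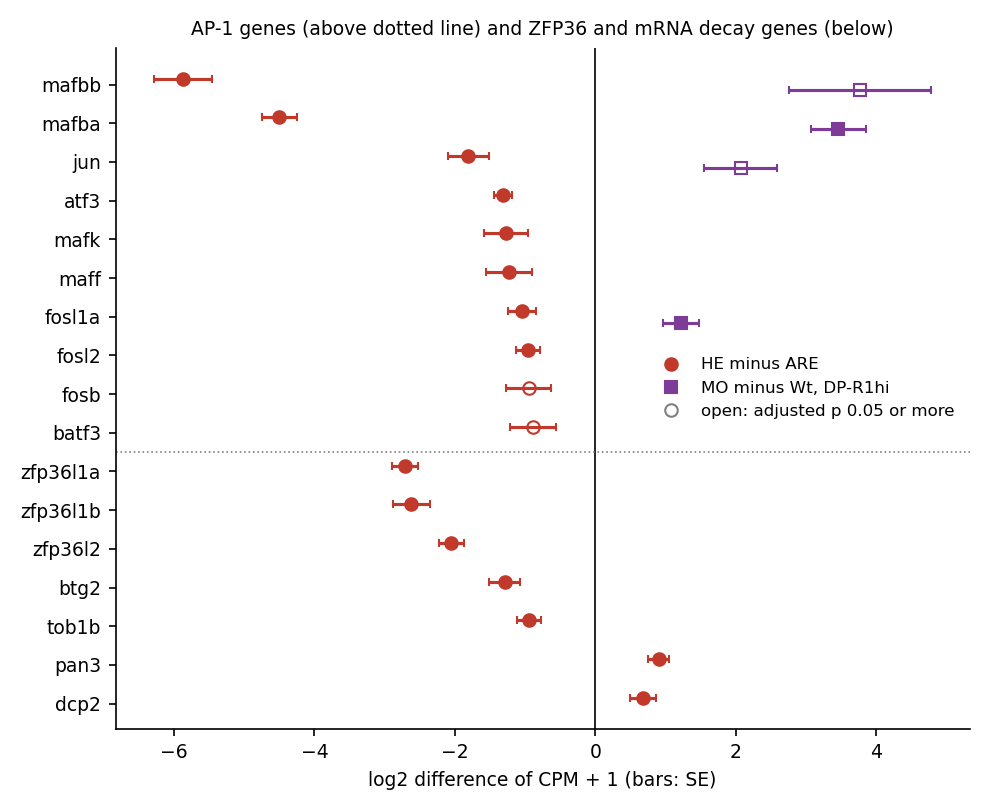
Log2 difference of CPM + 1 (horizontal axis) with its SE for the listed AP-1 genes (above the dotted line) and ZFP36 and mRNA decay genes (below it), HE minus ARE as red circles and MO minus Wt in DP-R1hi as purple squares. Open symbols did not pass; the AP-1 genes run from -5.87 to -0.89 between the gates, the 4 with morphant values lie to the right of 0, and zfp36l1a, zfp36l1b and zfp36l2 lie between -2.71 and -2.05.

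The comparison of the HE and ARE gates and that of the morphant HE gate use the same 3 Wt-DP-R1hi libraries, so a low level there lowers the first difference and raises the second. Their values are therefore given side by side only. jun stood at -1.81 for HE minus ARE and at 2.07 for MO minus Wt, and fosl1a at -1.04 and 1.22. The non-injected libraries read 1.0766 to 1.09669 times higher in the morphant table than in the other, a difference of scaling that every listed gene shares.

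The morpholino was also examined in the DN gate, which the study set beside the HE gate to find off-target effects of the morpholino. It set aside genes that moved the same way in both gates, and fosl1a had higher values in morphants in both. In DN fosl1a was the only member with values, and it rose 6.39-fold by the means. It had 79.7, 31.3 and 105 CPM in the 3 morphant libraries, against 10.8, 9.38 and 13.5 CPM in the 3 non-injected ones. Every morphant library was above every non-injected one, with library 2 the lowest of each group. The means were 71.9 ± 37.3 CPM in morphants and 11.2 ± 2.09 CPM in non-injected embryos (SD, n = 3 each). The difference was 2.42 (SE 0.40, 95% interval 1.53 to 3.32, limma adjusted p = 0.0428), the rank 18 of 119 genes with more transcript in morphants, whose median was 1.232.

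Of the 176 genes listed for DN, 22.7% passed and 19.3% passed as higher in morphants. Over the 11479 genes that the authors tested these shares were 0.348% and 0.296%. The groups did not overlap for 98.9% of the listed genes, and the exact two-sided permutation test gave its smallest value, 0.10. The call of fosl1a was lost without morphant library 1 (limma adjusted p = 0.164) and without non-injected library 1 (0.425), 2 (0.171) or 3 (0.078). It was kept without morphant library 2 (2.93, limma adjusted p = 0.00226) or 3 (2.07, limma adjusted p = 0.0474). On the whole reads behind the CPM, weighted with voom, fosl1a stood at 2.51 and did not pass (limma adjusted p = 0.157). Median-ratio scaling moves the differences down by about 0.91. Relative to that shift fosl1a stood at 1.55 and did not pass (limma adjusted p = 0.674), and the split of passing genes was 11 higher and 33 lower, against 34 higher and 6 lower with the deposited CPM.

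Few relatives of fosl1a were listed in the DN gate. It was the only 1 of the 32 AP-1 genes, and no gene of the ZFP36 or MAP kinase lists was in the table. The median over all genes listed for DN was 0.997. Among other immediate early genes the Myc genes were listed, with myca at 1.28 (137 ± 22 CPM in morphants and 55.5 ± 9.02 CPM in non-injected embryos, SD, n = 3 each, limma adjusted p = 0.0327) and mycb at 1.01 (limma adjusted p = 0.12). Of the mammalian AP-1 targets the gelatinase gene mmp2 rose by 2.24 (219 ± 18.9 CPM in morphants and 45.4 ± 4.32 CPM in non-injected embryos, SD, n = 3 each, limma adjusted p = 0.000474). The cytokine gene il1b stood at -0.88 and did not pass (limma adjusted p = 1), nor did the chaperone gene hsp90aa1.1 at 1.66 (limma adjusted p = 0.109).

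In the DN gate the 8 listed erythrocyte markers summed to 365 to 669 CPM in morphants and 1417 to 1836 CPM in non-injected embryos. Of these 4 passed, all lower, beside 22.7% of all listed genes passing. The 4 listed macrophage and neutrophil markers summed to 9.43 to 11.5 CPM in morphants and 20 to 33.9 CPM in non-injected embryos. The 1 listed nervous system marker had 522 to 904 CPM in morphants and 1095 to 1990 CPM in non-injected embryos. No marker of these last lists passed. Groups did not overlap for 98.9% of all listed genes. No marker of epidermis or muscle was listed. The part of these cells in the value of fosl1a was not tested.

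**Figure D3:**
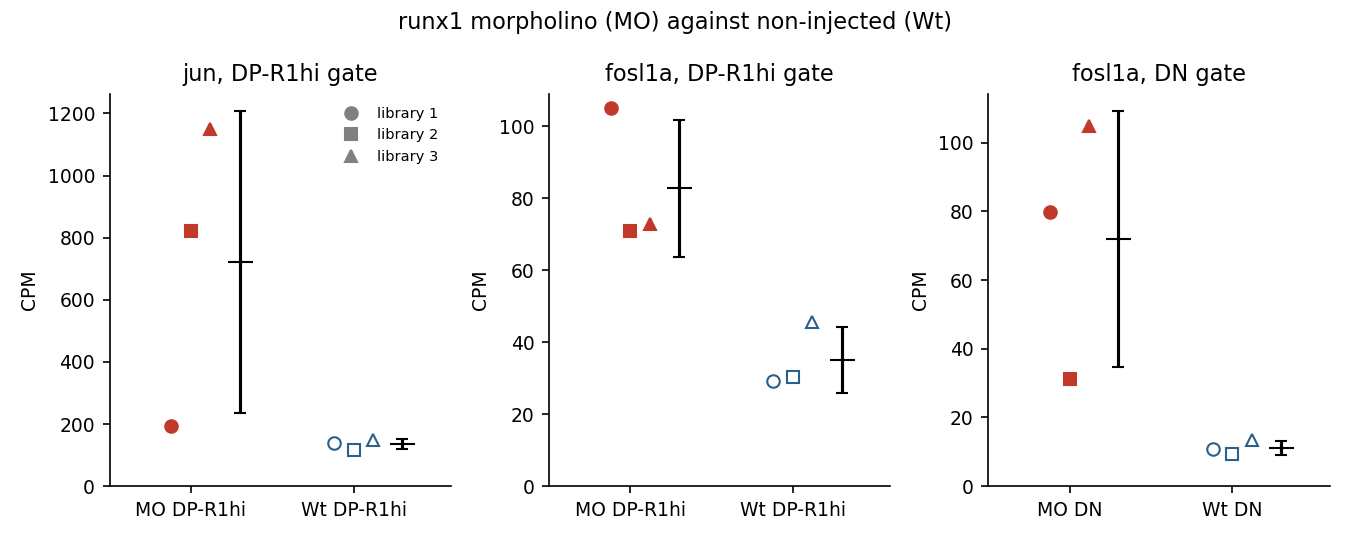
CPM (vertical axis) of jun and fosl1a in the DP-R1hi gate and of fosl1a in the DN gate, in 3 morphant libraries (filled red) and 3 non-injected libraries (open blue) each. Shape gives the library number, the dash the mean and the bar 1 SD; morphant jun runs from 195 to 1150 CPM, and all morphant libraries lie above the non-injected ones.

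The 2 morphant tables share a normalisation, so the fosl1a effects could be compared directly in a model with a gate by injection term. The effect in DP-R1hi minus that in DN was -1.20 (SE 0.50, 95% interval -2.25 to -0.16, unadjusted p = 0.0267). It did not pass over all genes tested (limma adjusted p = 1), a correction under which 28.6% of the 63 genes listed in both tables passed. Nor did it pass when adjusted over those 63 genes (limma adjusted p = 0.0601), where 39.7% passed. On the shared scale the order of fosl1a levels was MO-DP-R1hi, MO-DN, Wt-DP-R1hi and Wt-DN. MO-DP-R1hi at 70.8 to 105 CPM overlapped with MO-DN at 31.3 to 105 CPM. MO-DN also overlapped with Wt-DP-R1hi at 29.3 to 45.6 CPM, and Wt-DN at 9.38 to 13.5 CPM lay below all others. ARE had 61.1 to 69.6 CPM on its own scale.

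The spread between libraries of a group was itself uneven. The log2 SD of jun was 0.75 in ARE, which ranks 75 from the highest among 2732 listed genes with a median of 0.27, and 0.16 in HE, where the median was 0.24. In MO-DP-R1hi it was 1.36, rank 18 of 676 with a median of 0.33, and the highest library had 5.91 times the CPM of the lowest. In Wt-DP-R1hi of that table it was 0.17. fosl1a was close to typical in MO-DP-R1hi at 0.31 but had a log2 SD of 0.90 in MO-DN, rank 5 of 176 with a median of 0.29. In ARE it had 0.10, rank 2441 of 2732. zfp36l1a had 0.24 in HE and 0.35 in ARE. The wider spread of jun stood in the group with the higher level in both comparisons, and that of fosl1a in 1 of 3, DN.

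**Figure D4:**
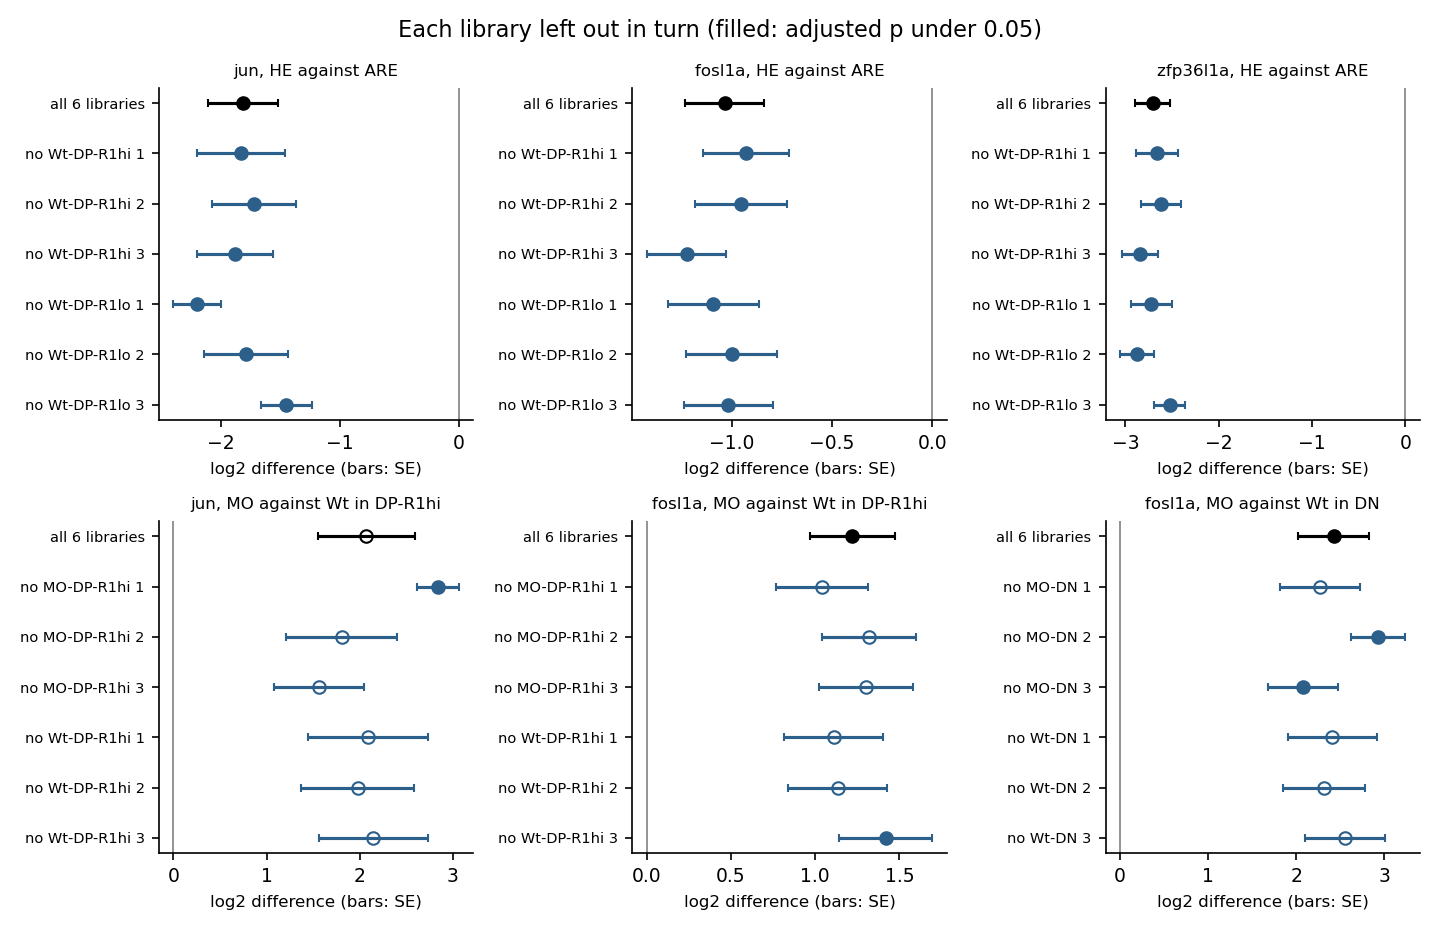
Log2 difference of CPM + 1 (horizontal axis) with its SE for each member and comparison, with all 6 libraries (black) and without each library in turn (blue). Filled symbols passed; the HE against ARE calls all pass, jun in morphant DP-R1hi passes only without morphant library 1, and fosl1a passes in 1 of 6 settings in DP-R1hi and in 2 of 6 in DN.

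The genes whose library-to-library pattern was most like that of a member were found from deviations from the group means over the 6 libraries of a table, as a description over points that share libraries and depth. Between the HE and ARE gates jun was most like nle1 (r = 0.996), qrsl1 (0.989) and zgc:113162 (0.983) among 2731 genes. fosl1a was most like tnnt1 (0.993), gclc (0.992) and fermt2 (0.988), and zfp36l1a most like fam174b (0.999), apoeb (0.998) and tpd52l1 (0.997). For pairs of members r was 0.356 for jun with fosl1a, 0.515 for jun with zfp36l1a and 0.498 for fosl1a with zfp36l1a. The nearest genes were picked as the highest of 2731 values over 6 libraries. Pairs fixed beforehand cannot be judged against them. In the morphant comparison of the HE gate jun was most like gopc (0.995), tmem11 (0.992) and bloc1s4 (0.989) among 675 genes, and fosl1a most like mccc1 (0.994), cyp46a1.1 (0.994) and zgc:92380 (0.991). jun with fosl1a stood at -0.578 there. In DN the genes nearest to fosl1a were cldn5b (0.913), stk36 (0.851) and dkc1 (0.829) among 175.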

How the data were processed

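RNA was sequenced from FAC-sorted pools of zebrafish cells with SMARTer low-input libraries. The authors trimmed reads with Trimmomatic 0.32, aligned them to genome Zv10 with STAR, counted them per gene with featureCounts and deposited 3 tables of CPM (reads scaled to the effective library size with edgeR). A table holds only genes under the authors' FDR threshold. The other columns deposited by the authors, a log2 fold change, a mean log2 CPM, a likelihood ratio score and p-values with FDR, were used only to recover the number of genes tested and to compare normalisations. They were not used as results. No column lacked a sample (0).

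limma 3.58.1 in R 4.3.3 was fitted to log2(CPM + 1) of all listed genes (pseudocount 1, mean trend, two-sided, no filter on low values, no block). Fold changes on this scale understate low genes. Benjamini-Hochberg adjustment used the number of genes that the authors tested, 10916 or 11479, with a threshold of 0.05. The genes had passed the authors' test on these same libraries, so a limma call is no independent evidence. The fit was tested on simulated data. Exact permutation tests used scipy 1.17.1. All listed values were whole reads (tolerance 1e-06). edgeR's count test was not run on them. Unlisted genes would be missing from its spread, a limit that the limma fits share. The morphant tables held 3 to 63 values a library at 20 reads or fewer. The HE against ARE table held 153 to 288 such values in the HE libraries and 30 to 31 in the ARE libraries. limma's voom on these reads was added after the data were seen.

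Groups came from the sample labels. Every clutch was divided between injection and none, and the gates were sorted from shared pools of embryos. No label ties a library number to an experiment, so correlations of deviations were computed. For libraries with the same number they were 0.128, 0.313 and 0.118 in the DP-R1hi morphant comparison. They were 0.0942, 0.183 and 0.267 between HE and ARE, an overlapping range, and 0.223, 0.181 and -0.0555 in DN. These weak values do not settle in which comparisons the numbers mark pairs, so the block was fitted as an alternative in each. From the AP-1 and the ZFP36 and decay lists all listed genes are named, from other lists the 3 with the largest difference in a comparison. kdrl, gfi1aa and myb were named after their values were seen. The members and lists were chosen with earlier results of these data known. Alternatives were the pseudocount, a minimum mean CPM of 5, no mean trend, median-ratio scaling, the number of tests, the replicate block and leaving out each library. Some values, those of runx1 among them, are not reported here. Intervals on reads cover counting error only.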

Additional observations from a re-analysis of the deposited data

How the results depend on the processing

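No direction of jun, fosl1a or zfp36l1a was reversed by a pseudocount of 0.1 or 5, a minimum mean CPM of 5, no mean trend, median-ratio scaling, the number of tests, the replicate block, voom on recovered reads or leaving out a library. Without each library in turn, the HE minus ARE differences ran from -2.20 to -1.45 for jun, -1.23 to -0.929 for fosl1a and -2.88 to -2.53 for zfp36l1a, and all passed. In the morphant HE gate jun ran from 1.56 to 2.84 (limma adjusted p 0.000136 to 0.335) and fosl1a from 1.04 to 1.42 (0.0339 to 0.189). In DN fosl1a ran from 2.07 to 2.93 (0.00226 to 0.425), and the difference between gates from -1.71 to -0.854, never passing.

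Median-ratio scaling ended the call of fosl1a between HE and ARE (-0.20), in the morphant HE gate (0.44) and in DN (1.55). By construction it centres genes that were listed as changed. Without a mean trend fosl1a did not pass in the morphant HE gate (1.22, limma adjusted p = 0.0897) or in DN (2.42, 0.0800), nor in DN with a pseudocount of 0.1 (2.51, 0.0704). With voom on recovered reads fosl1a in DN did not pass (2.51, 0.157) and 26 genes passed there. The cause was not tested. jun in the morphant HE gate (2.07) passed when only listed genes counted as tests (limma adjusted p = 0.00471), a smaller correction that leaves out genes already discarded.

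With the replicate block jun in the morphant HE gate passed (2.07, limma adjusted p = 0.0043), and fosl1a kept its call there (1.22, 0.0212). Between HE and ARE and in DN the block changed no call of the 3 genes, with fosl1a in DN at 2.42 (limma adjusted p = 1.17e-05). With it the count of passing genes was 2686 between HE and ARE, 376 in the morphant HE gate and 101 in DN. Without the block the counts were 2581, 280 and 40. With the listed genes as the number of tests these counts were 661 in the morphant HE gate and 176 in DN. Without a mean trend it was 158 in the morphant HE gate, and without each library in turn the counts ran from 2184 to 2371, from 94 to 230 and from 8 to 33. Among these, the counts changed by over 1.5 times without non-injected DP-R1hi library 1 (101), 2 (94) or 3 (176), and without non-injected DN library 1 (8) or 3 (25). With tables cut at the authors' threshold, genes that are not listed could not be examined. With 3 libraries in a group, the morphant calls of fosl1a near 0.05 were lost in most fits with 1 library left out. Its estimates kept their sign there, and a fit with fewer libraries also has less power.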
